A study of Rattus norvegicus with 6 samples.

Results

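The isolated peaks are stretches of accessible chromatin that stood alone in the genome of INS-1 cells. A peak was taken as isolated when no other merged peak on its chromosome had a midpoint within 50 kb of its own midpoint and when it was called in at least 2 of the 6 ATAC-seq libraries. Mitochondrial peaks did not enter. Of 169622 peaks called in at least 2 libraries, 1734 were isolated, which is 1.02%, and the whole table held 220490 merged peaks. A further 635 peaks were as isolated but were called in 1 library only, and these were not counted as members.

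ATAC-seq uses the Tn5 transposase, which inserts adapters where DNA is not wrapped tightly, so that read density marks open chromatin. INS-1 is a rat insulinoma line used as a model of the pancreatic beta cell. WT INS-1 cells and Med14 S983A INS-1 cells, in which a serine of the Mediator subunit Med14 is replaced by alanine, were each left untreated (CON) or treated in serum-free medium for 1 h with 10 nM exendin-4 (Ex-4) or 10 µM forskolin (FSK). There was 1 library for each of these 6 conditions. Without replicates no error between cultures can be stated. No test was made, and a model that assumes the same treatment response in each genotype was not fitted, so every difference describes these libraries only. The study made more than 1 line with the Med14 substitution independently. Which of them gave the 3 mutant libraries, and whether cultures were pooled, was not stated. A property of 1 clone and an effect of the substitution cannot be told apart.

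Ex-4 activates the GLP-1 receptor of beta cells, which raises cAMP, and FSK raises cAMP by activating adenylate cyclase directly. The cAMP signal reaches chromatin through protein kinase A, the factor CREB and its coactivators, and Mediator links such factors to RNA polymerase II. Accessible elements of active genes usually lie in clusters made of a promoter and several enhancers. An isolated peak can be a single distal enhancer, a promoter in a region with few genes, or a site bound by an architectural factor such as CTCF. The annotation and sequence of rn6, the build of the coordinates, were not used here, so the genes near the peaks, the motifs in them and the marker genes of beta cells were not analysed here.

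Isolated peaks were short and weak. Their median length was 292 bp (quartiles 190 to 488), against 378 bp for all peaks called in at least 2 libraries, and their median level over the 6 libraries was 1.91 FPKM against 3.35. FPKM are reads per length of peak and per sum of reads in the peaks of that library, so levels of peaks of different length can be compared. Among the peaks called in a library, the median level of isolated peaks was 3.57, 3.33 and 3.10 FPKM in WT and 3.62, 3.21 and 2.84 FPKM in Med14 S983A, in the order CON, Ex-4, FSK, which is kept for all triplets of values that follow. All peaks called in these libraries had medians between 4.79 and 5.87 FPKM, so isolated peaks were weaker in each of the 6. Few isolated peaks were strong. Those above 20 FPKM numbered 53 in WT CON and 57 in Med14 S983A CON, 3.06% and 3.29% of the members, where 11.6% and 11.4% of all peaks passed this level.

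The reads in peaks recovered from the table were 151500000, 158800000 and 251200000 for WT and 134300000, 147100000 and 163000000 for Med14 S983A. A called isolated peak had a median of between 133 and 224 reads per library. Counting error alone was therefore between 6.68% and 8.67% for the median member, well below a 2-fold change, while the variation between cultures is unknown. Whether a recovered step is a read or a whole fragment is not known, and where the 2 reads of a fragment were counted separately, the counting errors and intervals given here are too small. A peak missing from the peak list of a library was listed at 0 in it, and WT FSK, the deepest library, had the most calls.

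The distance to the nearest other peak had a median of 68.8 kb among the members (quartiles 57.3 to 94.8), against 2.21 kb among all peaks, which had a median of 13 other peaks within 50 kb. Only 377 members were more than 100 kb from any other peak, 56 more than 200 kb and 19 more than 300 kb. The nearest peak of 376 members (21.7%) was itself a member. The limit did not cut through a step in the data. The 68 members up to 1 kb above it had a median level of 1.66 FPKM, and 41.2% of them were called in all 6 libraries. The 72 peaks up to 1 kb below it had 2.03 FPKM and 44.4%.

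Isolated peaks were spread unevenly over the chromosomes. Chromosome X held 186 of them, 10.7% of the members but 2.66% of the peaks, so that 4.12% of its peaks were isolated. Chromosome 15 followed with 113 members, 2.45% of its peaks. The lowest shares were on chromosome 12, with 17 members (0.329%), and chromosome 10, with 39 (0.369%).

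**Figure D1:**
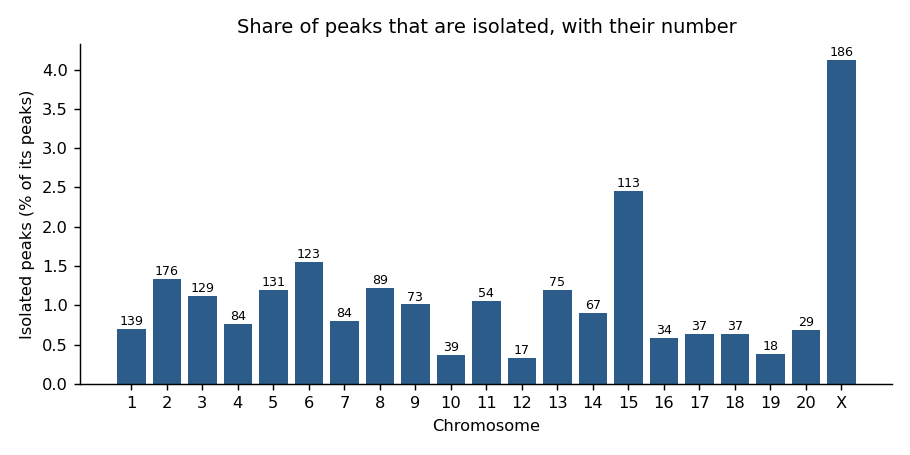
Bars give the percentage of the peaks of each chromosome, among peaks called in at least 2 libraries, that had no other merged peak within 50 kb, and the number on each bar is the count of isolated peaks. Chromosome X stands highest at 4.12% and chromosome 15 second at 2.45%, while chromosome 12 is lowest at 0.329%.

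A small group of lone peaks was strongly open in every condition. The strongest, chr2:209432667-209433723, lay 74.4 kb from its nearest peak and had 61.8, 60.7 and 55.9 FPKM in WT and 65.2, 63.5 and 65.4 in Med14 S983A. Next came chr2:14701228-14702065, 101.0 kb from any other, with 58.4, 57.1 and 49.6 FPKM in WT and 63.7, 62.5 and 56.0 in Med14 S983A. Levels of these 2 peaks moved by at most 0.24 on the log2 scale with either agent. The third, chr5:7464835-7465959, had 50.5, 47.0 and 37.0 FPKM in WT and 58.0, 53.2 and 45.7 in Med14 S983A. Next in rank, chr7:10795326-10796427, had 46.4, 45.9 and 39.5 FPKM in WT and 52.0, 49.4 and 47.5 in Med14 S983A, and chr1:75355616-75356955 had 42.7, 42.0 and 37.6 in WT and 49.6, 47.5 and 44.5 in Med14 S983A. In the last 3 peaks FSK was the lowest and CON the highest library of each genotype.

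The 3 members farthest from any other peak, among those called in all 6 libraries, had mean levels of 1.48, 2.05 and 3.14 FPKM. The median was 1.91 FPKM for all members and 3.35 FPKM for all peaks. The most remote, chr10:111834601-111835654, was 576 kb from its nearest peak and had 1.53, 1.16 and 1.04 FPKM in WT and 2.06, 2.14 and 0.985 in Med14 S983A. At 481 kb from any other, chr3:96659729-96660031 had 1.60, 1.44 and 1.34 FPKM in WT and 3.30, 2.32 and 2.28 in Med14 S983A, higher in each mutant library. The peak chr12:35669591-35670103, at 457 kb, was higher in each WT library, with 4.91, 4.21 and 3.94 FPKM against 2.87, 1.90 and 0.995.

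Isolated peaks were called less uniformly than other peaks. Of the 1734 members, 673 (38.8%) were called in all 6 libraries, against 51.0% of all peaks called in at least 2. A further 214 (12.3%) were called in every WT and no Med14 S983A library, a pattern that 7.18% of all peaks showed. The reverse pattern, every Med14 S983A and no WT library, covered 62 members (3.58%) against 2.95% of all peaks. Peaks called in the 2 FSK libraries alone made up 180 members (10.4%, all peaks 9.13%), and peaks of WT CON and WT Ex-4 alone made up 83 (4.79%, all peaks 2.1%). A call depends on depth and on the level of the peak, and members were weaker than other peaks. The part of level in these shares was not tested.

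**Figure D2:**
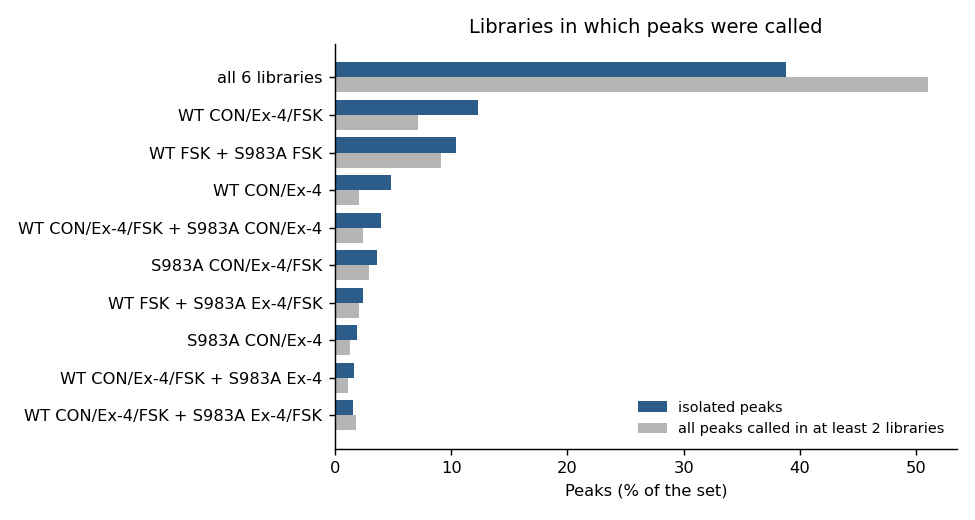
Horizontal bars give the 10 commonest sets of libraries in which isolated peaks were called, as a percentage of the 1734 isolated peaks, beside the percentage among all peaks called in at least 2 libraries, with S983A standing for Med14 S983A. Isolated peaks were called in all 6 libraries less often, at 38.8% against 51.0%, and in the 3 WT libraries alone more often, at 12.3% against 7.18%.

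The first comparison asked how lone peaks responded to a strong cAMP signal in WT cells. Members with a value in WT FSK and WT CON fell with FSK more often than they rose, while over all 1734 members more calls were gained than lost, so the direction depends on whether members without a call are counted. Of 1103 members with a value in each, 99 (8.98%) were at least 2-fold lower with FSK, where 5.34% of all peaks were, and 64 (5.8%) were at least 2-fold higher, where 7.09% of all peaks were. The fold was taken on log2(FPKM + 0.5). The median change of the members was -0.27 on this scale (quartiles -0.58 to 0.05), against -0.14 for all peaks, and 803 members (72.8%) were below 0, as were 63.6% of all peaks. Among the members that changed, 39.3% were higher, against 57.0% among all peaks. This split moved to 45.9% against 63.3% when each library was centred and to 49.3% against 63.8% after quantile normalization.

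The call was lost with FSK in 160 members (9.23%), against 5.57% of all peaks, and gained in 334 members (19.3%), against 18.6% of all peaks. WT FSK was the deepest library. With members lacking a call counted at 0 FPKM, 397 of the 1734 (22.9%) were at least 2-fold higher and 258 (14.9%) lower, against 23.4% and 9.2% of all peaks. The share of members that fell was thus above that of all peaks either way. None of the gained members passed 9.2 FPKM in WT FSK, and none of the lost members had passed 6.22 FPKM in WT CON.

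In Med14 S983A cells, too, members with a value in FSK and CON fell more often than they rose, and more calls were gained than lost. Of 834 such members, 75 (8.99%) were at least 2-fold lower, where 4.11% of all peaks were, and 27 (3.24%) were at least 2-fold higher, where 5.35% of all peaks were. The median change was -0.32 against -0.11, and 633 members (75.9%) were below 0, as were 61.6% of all peaks. The share of higher peaks among the changed members was 26.5%, against 56.6% among all peaks. With centred libraries it was 36.0% against 69.6%, and after quantile normalization 37.5% against 70.5%. FSK removed the call of 185 members (10.7%, all peaks 7.2%) and brought that of 313 (18.1%, all peaks 18.0%). With members lacking a call counted at 0 FPKM, 339 (19.6%) were higher and 259 (14.9%) lower, against 21.1% and 9.62% of all peaks. Whether the 2 genotypes differ in this response was not tested, since each condition had 1 library.

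Among peaks with a value in FSK and CON, the share that fell with FSK declined as neighbours increased. Peaks called in at least 2 libraries were divided by the number of other merged peaks within 50 kb. In WT, the share at least 2-fold lower was 8.98% with none, 8.80% with 1 to 2, 8.06% with 3 to 5, 6.73% with 6 to 10 and 3.91% with over 10 neighbours. The share at least 2-fold higher moved the other way, from 5.80% with none to 7.56% with over 10. In Med14 S983A the lower share went from 8.99% to 2.65% and the higher share from 3.24% to 6.27% between the same ends. In WT the order of the higher share was not kept when only peaks called in a CON library counted as neighbours, as given below. The median change in WT was -0.27, -0.27, -0.23, -0.19 and -0.10 over the 5 classes. In the falls and the median change, isolated peaks therefore stood at 1 end of a gradient. They lay next to peaks with 1 or 2 neighbours, not apart from the rest.

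**Figure D3:**
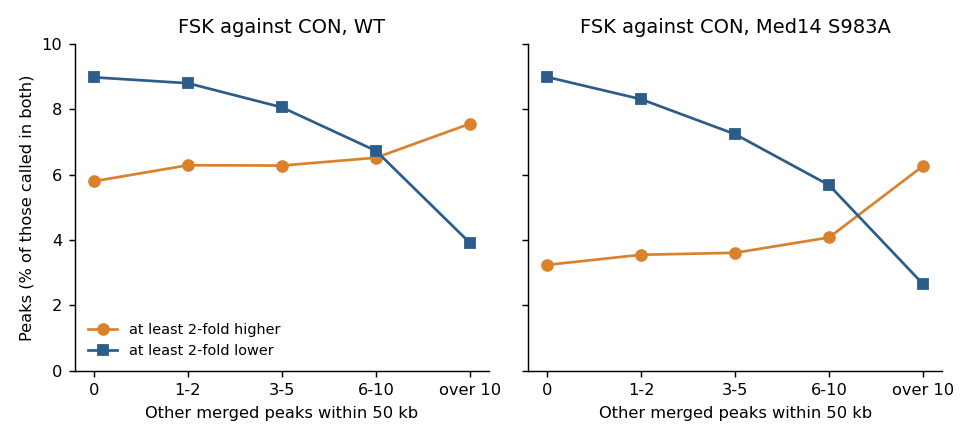
Lines give the percentage of peaks at least 2-fold higher or lower with FSK than in CON, among peaks with a value in the 2 libraries, for classes of peaks by the number of other merged peaks within 50 kb, in WT and in Med14 S983A. The share that fell declines from 8.98% to 3.91% in WT and from 8.99% to 2.65% in Med14 S983A as neighbours increase, and it passes below the share that rose in the class of over 10 neighbours.

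Because isolated peaks were short and weak, the same classes were compared at matched length and level. Among peaks over 500 bp, 8.68% of 403 isolated peaks and 3.28% of those with over 10 neighbours fell at least 2-fold in WT. Among peaks over 250 and up to 500 bp the median change in WT was -0.26 for isolated peaks and -0.09 for those with over 10 neighbours, and among peaks of at most 250 bp it was -0.27 and -0.12. In this shortest class, which held 709 members, the WT share that fell showed no steady order, at 5.20%, 6.05%, 4.81%, 5.52% and 3.14% from no to over 10 neighbours. Among peaks called in all 6 libraries with a mean level between 4 and 8 FPKM, the medians were -0.27 for 229 isolated peaks and -0.10 for peaks with over 10 neighbours in WT, and -0.38 and -0.11 in Med14 S983A. At this level the WT share that fell was 5.68%, 7.38%, 6.94%, 5.68% and 3.53% over the 5 classes, so isolated peaks did not stand highest. In Med14 S983A it declined from 10.9% to 3.61%. The WT share went from 8.23% to 3.72% between 2 and 4 FPKM and from 10.2% to 2.88% between 8 and 16 FPKM. Above 16 FPKM it showed no steady order, at 1.52%, 1.33%, 1.32%, 1.77% and 1.32%. Length and level classes were taken one at a time, and other properties of lone peaks were not matched.

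Lone peaks called in all 6 libraries with a high mean level did not open 2-fold with FSK. A choice by mean level can leave out peaks that were weak in CON and strong with FSK. The peak chr2:245529999-245530390 had a mean of 4.43 FPKM and reached 10.7 FPKM in WT FSK. Of 154 isolated peaks called in all 6 libraries with a mean above 8 FPKM, 0 rose at least 2-fold with FSK in WT and 10 (6.49%) fell, and in Med14 S983A 0 rose and 12 (7.79%) fell. Peaks of that level with over 10 neighbours rose in 4.93% and fell in 1.98% of cases in WT. In Med14 S983A these shares were 4.26% and 2.06%. Over all peaks of that level 4.62% rose and 2.35% fell in WT, and 3.77% rose and 2.72% fell in Med14 S983A. The 154 peaks share the same libraries, so a count of 0 among them sets no limit on the share in other cultures. Above 16 FPKM the falls were near those of crowded peaks in WT, with 1 of 66 isolated peaks (1.52%) against 1.32% of peaks with over 10 neighbours, and stood at 2 of 66 (3.03%) against 1.39% in Med14 S983A. Of all peaks above 16 FPKM, 1.4% fell in WT and 1.6% in Med14 S983A.

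The definition of an isolated peak itself uses peaks called in FSK libraries as neighbours, so a peak near an FSK-induced peak cannot be isolated. Counting as neighbours only the peaks called in a CON library gave 3483 isolated peaks. Of these, 8.37% fell and 7.04% rose with FSK in WT, so that the fall stayed above the 5.34% of all peaks while the rise came close to 7.09%. In Med14 S983A, 8.67% fell and 3.95% rose. Over the 5 classes of such neighbours, the WT share that rose showed no steady order, at 7.04%, 6.57%, 6.98%, 7.28% and 7.1%. The WT share that fell still declined, from 8.37% with none to 3.71% with over 10. In Med14 S983A the share that fell went from 8.67% to 2.47% and the share that rose from 3.95% to 6.2%.

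Members that fell were not confined to 1 chromosome. The median FSK change of the members in WT was below 0 on 21 of 21 chromosomes, from -0.12 on chromosome 4 to -0.51 on chromosome 18. The median over all peaks was itself below 0, at -0.14, so this count shows nothing particular to members. Members at least 2-fold lower outnumbered those at least 2-fold higher on 13 of 21, and on chromosome 15, 6 rose and 2 fell. The changes of all peaks were not taken by chromosome. On chromosome X, 14 of 110 members fell (12.7%) and 3 rose, and on the autosomes 85 of 993 fell (8.56%) and 61 rose.

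Among the 673 members called in all 6 libraries, the 2 largest openings with FSK in WT also rose in Med14 S983A. This choice required a call in every Med14 S983A library, and it held 26 of the 64 members at least 2-fold higher in WT. The largest rise was at chr2:245529999-245530390, 391 bp long and 110 kb from any other peak, with 0.895 FPKM in WT CON (95% Poisson interval 0.67 to 1.17 for counting error), 1.74 in WT Ex-4 and 10.7 in WT FSK (10.1 to 11.4). In Med14 S983A it had 0.781, 3.16 and 9.23 FPKM. The CON levels of the 2 genotypes overlapped within counting error, the FSK change was 3.01 in WT and 2.92 in Med14 S983A on the log2 scale, and Ex-4 lay in between with 0.68 and 1.52. The second rise was at chr16:58888791-58889419, with 1.18, 1.78 and 8.69 FPKM in WT and 1.71, 4.67 and 9.85 in Med14 S983A. This peak lay just inside the limit, 50015 bp from its nearest peak, and again its Ex-4 level was higher in Med14 S983A.

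Among the same 673 members, the 2 largest closings in WT also fell in Med14 S983A. These members held 49 of the 99 that were at least 2-fold lower in WT. The peak chr11:24933757-24934468 fell in WT from 12.2 FPKM in CON (11.5 to 12.8) through 8.52 with Ex-4 to 1.77 with FSK (1.59 to 1.98). In Med14 S983A it started lower and had 3.20, 2.51 and 0.518 FPKM. Its FSK change was -2.48 in WT and -1.86 in Med14 S983A. The peak chr2:170188909-170189189 fell by similar amounts with FSK in the 2 genotypes, by 1.73 and 1.71 on the log2 scale, with 6.93, 4.65 and 1.74 FPKM in WT and 7.74, 6.77 and 2.02 in Med14 S983A. Its Ex-4 levels did not overlap within counting error. A further peak of the 673, chr20:53511099-53511440, had their largest FSK fall in Med14 S983A, from 5.79 through 3.87 to 1.21 FPKM, where WT had 2.30, 2.88 and 0.981.

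**Figure D4:**
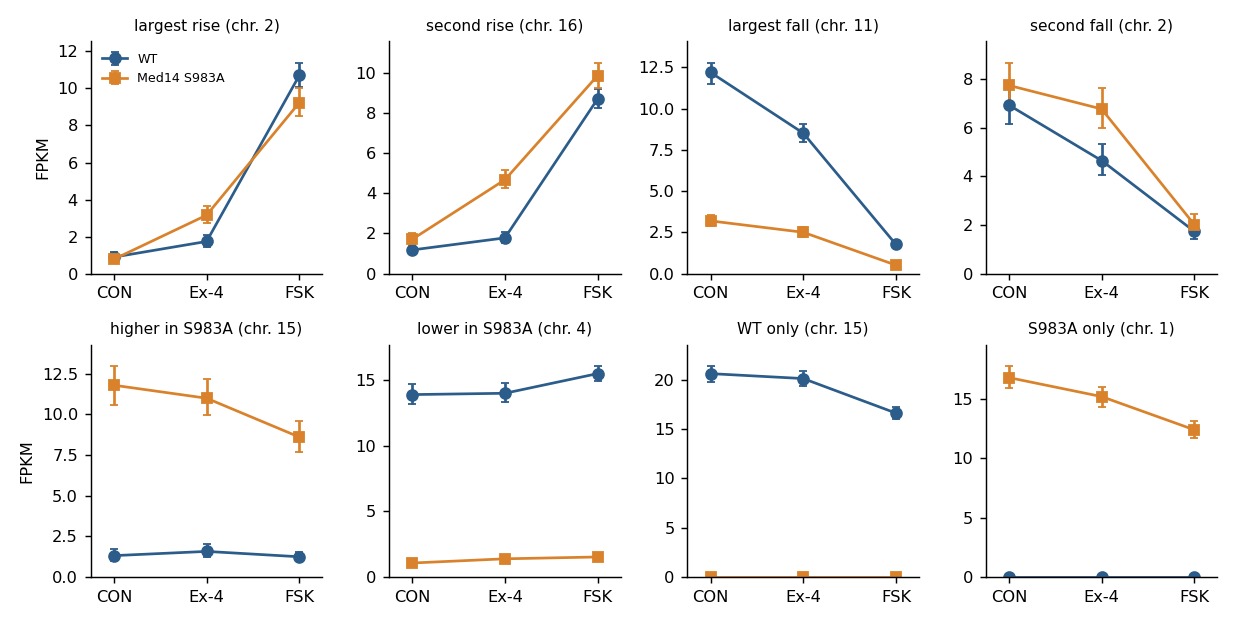
Each panel gives the FPKM of 1 isolated peak in CON, Ex-4 and FSK, in WT and in Med14 S983A (S983A), with bars for the 95% Poisson interval of its reads and no bar where a peak is listed at 0. The 2 rising and 2 falling peaks were taken from members called in all 6 libraries. The 2 rising peaks reach 10.7 and 8.69 FPKM in WT FSK and the 2 falling peaks drop to 1.77 and 1.74, with the same direction in Med14 S983A, while the lower panels show peaks that differ between the genotypes in all 3 treatments.

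The responses of the genotypes ran together over the 673 members called in all 6 libraries. The FSK change in WT and that in Med14 S983A had a Pearson's r of 0.82 and a Spearman's rho of 0.73 across these peaks, which share their libraries, against 0.85 and 0.79 over the 86576 peaks of the table called in all 6. Of 26 members at least 2-fold higher in WT, 14 were also at least 2-fold higher in Med14 S983A and 24 were above 0. Of 49 members at least 2-fold lower in WT, 33 were at least 2-fold lower in Med14 S983A and all 49 were below 0. Over all peaks called in the 6 libraries, 3141 of 5144 higher in WT and 1776 of 3165 lower in WT changed at least 2-fold the same way in Med14 S983A. None of the 673 was at least 2-fold higher in 1 genotype and at least 2-fold lower in the other.

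**Figure D5:**
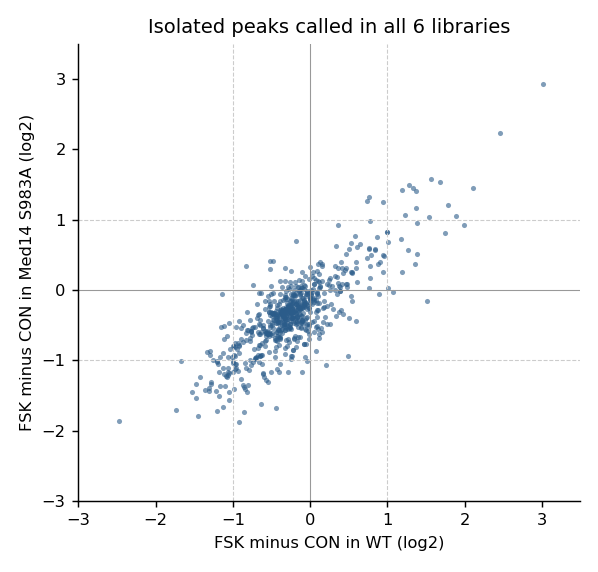
Each point is 1 of the 673 isolated peaks called in all 6 libraries, with the FSK minus CON difference of log2(FPKM + 0.5) in WT on the horizontal axis and in Med14 S983A on the vertical axis, and dashed lines at a 2-fold change. The cloud is centred below and to the left of 0, with medians of -0.26 and -0.34, and follows the diagonal with r = 0.82.

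The second comparison asked how lone peaks responded to Ex-4, the weaker stimulus here. Few moved by 2-fold. Of 1191 members with a value in WT Ex-4 and WT CON, 2 (0.168%) were at least 2-fold higher, against 0.514% of all peaks, and 3 (0.252%) were at least 2-fold lower, against 0.229%. The median change was -0.05, and all peaks had -0.02. Ex-4 brought the call of 76 members (4.38%, all peaks 5.68%) and removed that of 72 (4.15%, all peaks 4.11%). In Med14 S983A, 6 of 955 members (0.628%) were higher, against 0.767% of all peaks, and 2 (0.209%) were lower, against 0.136%. There the call was gained in 163 members (9.4%, all peaks 9.03%) and lost in 64 (3.69%, all peaks 3.78%). The counts of members changed 2-fold by Ex-4 were too small to set against the shares of all peaks.

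The largest rises with Ex-4 in WT among members called in all 6 libraries went further with FSK. The peak chr13:62512372-62512685 had 0.907, 2.49 and 5.57 FPKM in WT and 1.48, 2.61 and 4.90 in Med14 S983A, so that Ex-4 lay between CON and FSK in each genotype. The Ex-4 change was 1.09 in WT and 0.65 in Med14 S983A. A smaller Ex-4 change in WT, of 0.71, was seen at chr8:92085783-92086569, which had 2.19, 3.89 and 5.62 FPKM in WT and 2.55, 3.54 and 3.15 in Med14 S983A. There FSK exceeded Ex-4 in WT and not in Med14 S983A, a difference that was not tested. Among the same members, the largest fall with Ex-4 in WT was at chr2:18254448-18255119, with a change of -0.89. This peak had 2.10, 0.901 and 0.463 FPKM in WT and 2.46, 2.47 and 0.759 in Med14 S983A. FSK gave its lowest level in each genotype. Among the largest falls with Ex-4 in Med14 S983A was chrX:75644518-75644697, with 2.36, 2.04 and 1.78 FPKM in WT and 3.41, 1.78 and 1.58 in Med14 S983A.

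Med14 S983A was then compared with WT. Isolated peaks called in WT CON were more often missing from Med14 S983A CON than other peaks were. Of the 1263 members called in WT CON, 412 were not called in Med14 S983A CON, as were 27021 of the 126116 peaks of the whole set called in WT CON. As shares of all 1734 members, these 412 were 23.8%, against 15.9% of all peaks. In CON, 168 members (9.69%) were called in Med14 S983A and not in WT, against 9.33% of all peaks. The lost members reached 20.6 FPKM in WT CON, and the gained members reached 16.8 FPKM in Med14 S983A CON. Of 851 members with a value in each, 90 (10.6%) were at least 2-fold lower in Med14 S983A, against 12.0% of all peaks, and 22 (2.59%) at least 2-fold higher, against 4.97%. The order of the lower shares turned with a 25 kb window (14.1% of members, all peaks 12.0%), with a 100 kb window (13.0%) and with members lacking a call counted at 0 FPKM (29.0%, all peaks 22.9%), and barely so with a pseudocount of 0.1 (13.7%, all peaks 13.6%). Higher members made up 19.6% of those that differed, against 29.3% among all peaks. This share depended on the scaling, and was 35.0% against 38.8% with centred libraries and 37.0% against 38.0% after quantile normalization.

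Differences that held in all 3 treatments were counted over the 673 members with a value in all 6 libraries. In CON, Ex-4 and FSK alike, 46 (6.84%) were at least 2-fold lower in Med14 S983A, where 7.69% of all peaks were, and 8 (1.19%) were at least 2-fold higher, where 2.88% were. The 3 treatments of a genotype are not independent replicates of it.

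Single lone peaks differed by far more than the treatments moved them. The peak chr4:12064318-12064944 had 13.9, 14 and 15.5 FPKM in WT and 1.06, 1.38 and 1.52 in Med14 S983A, a difference of -3.21 in CON. The peak chr9:11409724-11410210 had 23.1, 22.9 and 23.0 FPKM in WT and 3.14, 3.73 and 4.08 in Med14 S983A. In these peaks no mutant library came near a WT library. In the other direction, chr15:70489476-70489717 had 1.31, 1.57 and 1.24 FPKM in WT and 11.8, 11.0 and 8.61 in Med14 S983A, a difference of 2.76 in CON. The peak chr2:87119417-87120581 had 1.82, 1.84 and 1.51 FPKM in WT and 10.7, 10.0 and 7.57 in Med14 S983A.

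Members called in 1 genotype only reached levels far above the median of called members. The peak chr15:100282451-100283224 had 20.6, 20.1 and 16.6 FPKM in WT and was listed at 0 in all 3 Med14 S983A libraries. Likewise chr9:22807371-22807781 had 15.9, 16.7 and 15.2 FPKM and chr4:179133009-179133767 had 14.2, 16.5 and 15.4 FPKM in WT and were listed at 0 in Med14 S983A. The converse was seen at chr1:62209091-62209671, with 16.8, 15.2 and 12.4 FPKM in Med14 S983A and 0 listed in WT. The next of this kind, chr7:110983224-110984234, had 8.93, 8.73 and 6.50 FPKM in Med14 S983A. A 0 means that the library lacked a call there, not that it had no reads, so no fold is given.

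Peaks found in WT alone had like neighbours. Non-members called in at least 2 libraries were counted within 500 kb of each member, so a peak near several members was counted several times. Around the 214 members called in every WT and no Med14 S983A library, 890 of 5234 such counts (17.0%) had the same pattern. Around the 673 members called in all 6 libraries the share was 6.93% of 16734 counts. Around the 62 members of Med14 S983A alone it was 6.99% of 1416. The Med14 S983A pattern made up 3.67% of the counts around its own 62 members and 2.86% of those around members called in all 6. Shares without repeated peaks were not computed. Some members with this WT pattern were also next to each other in the order of members, passing over the peaks between them that were not members. In 10 places at least 3 successive members had it, with 39 members in all. How many such runs the share of this pattern among members would give by itself was not tested. The run of chr9:22599651-24772726 held 6 members over 2.17 Mb, with between 1.7 and 15.9 FPKM in WT CON, and those of chr15:99605507-101111611 and chr6:130377256-131009622 held 4 members each. A 6-member run on chromosome 4 spread over 22.6 Mb and a 4-member run on chromosome 10 over 8.16 Mb.

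The share of this WT pattern also rose as neighbours became fewer, from 5.52% of the peaks with over 10 to 8.54% with 6 to 10, 10.5% with 3 to 5, 12.2% with 1 to 2 and 12.3% with none. The pattern of Med14 S983A alone showed no such order, with 2.96%, 2.99%, 2.85%, 2.60% and 3.58%. By chromosome, members had the WT pattern more often than all peaks did on 16 of 21. It reached 12 of 39 members on chromosome 10 (30.8%, all peaks there 7.76%) and 31 of 139 on chromosome 1 (22.3%, all peaks there 8.51%). On chromosome 19 it was seen in 0 of 18 members, against 6.72% of all peaks there. The share of members was also below that of all peaks on chromosomes 2, 14 and 18. On chromosome X, which held the most members, it was 5.38% against 5.68% of all peaks.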

How the data were processed

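The 6 ATAC-seq libraries, from INS-1 cells of either genotype, were analysed from 1 deposited table. The authors trimmed reads (Trim Galore), aligned them to rn6 (BWA), removed mitochondrial, poorly mapped and duplicate reads (SAMtools), called peaks per library (MACS2) and merged them. They deposited FPKM computed with HOMER, with the libraries in which each merged peak was called. The FPKM are relative to reads in the library's own peaks, so a library with many called peaks divides its reads among more of them. The sources used here do not give whether fragments were shifted for the Tn5 cut site before counting.

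Neighbours were counted among all 220487 merged peaks off the mitochondrial chromosome, by midpoints. Changes were differences of log2(FPKM + 0.5) between 2 libraries over peaks with a value in each, with a 2-fold size rule, and calls gained or lost were counted separately. The same counts over all 169622 peaks called in at least 2 libraries stand beside those of the members. No p-value was computed. Reads were recovered from the whole steps of low values (100% within 0.15 of a whole number) and gave 95% Poisson intervals, for counting error only. Named peaks were the 5 strongest, the 3 most remote, and the 2 or 3 largest changes of each comparison among members called in all 6 libraries. For peaks of 1 genotype they were the 3 highest. Alternatives were other pseudocounts, filters, scalings, windows and definitions of a neighbour. The members and lists were chosen with earlier results of these data known. The calculation was tested on simulated reads. Tools were matplotlib 3.10.9, scipy 1.17.1, pandas 2.3.3 and numpy 2.4.6 under Python 3.11.15.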

Additional observations from a re-analysis of the deposited data

Results flagged for a closer look

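Isolated peaks called in 1 library only were outside the comparisons. There were 340 in WT FSK, against 64 in WT CON and 47 in WT Ex-4, and WT FSK held 53.5% of the 635, where it held 41.9% of all peaks called in 1 library. WT FSK was also the deepest library, and the part of depth was not tested. In Med14 S983A there were 70 in FSK and 68 in Ex-4, against 46 in CON, and the FSK library held 11.0% of the 635, against 21.5% of all peaks called in 1 library. Their median level was between 1.80 and 2.15 FPKM in the 6 libraries, and the highest had 11.4 FPKM, in WT FSK.

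At 2 of the named peaks an agent moved the genotypes in opposite directions by at least 1.2-fold, and the difference was not tested. At chr12:42094577-42095108 the FSK change was -0.32 in WT and 0.31 in Med14 S983A on the log2 scale, with 2.04 and 1.53 FPKM in WT CON and FSK and 0.897 and 1.24 in Med14 S983A. The 95% Poisson intervals of these pairs overlapped, at 1.74 to 2.38 and 1.33 to 1.75 in WT and 0.691 to 1.15 and 1.01 to 1.49 in Med14 S983A. At chr20:53511099-53511440 the Ex-4 change was 0.27 in WT, from 2.30 to 2.88 FPKM, and -0.53 in Med14 S983A, from 5.79 to 3.87. There the intervals overlapped in WT (1.91 to 2.76 and 2.45 to 3.37) and not in Med14 S983A (5.11 to 6.53 and 3.34 to 4.45).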

How the results depend on the processing

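No paired analysis was possible because the labels give no replicate number and there was 1 library for each condition. Treatments were matched between the genotypes in the counts over all 3 treatments, with no test. For the same reason no replicate could be left out. Every value rests on 1 library per condition. Of 158 values under the alternatives, 119 stayed within the exact binomial interval of the reported value and 39 left it. That interval takes members as independent, though all share the same libraries, so it only marks how far a value moved. In 11 of the 11 alternatives the share of members that fell with FSK was above that of all peaks treated the same way, in WT and in Med14 S983A.

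With a pseudocount of 0.1, members lower with FSK rose to 13.3% (147 for 99) in WT and 12.5% (104) in Med14 S983A, those lower with Ex-4 in WT to 0.756% (9 for 3), and those higher or lower in Med14 S983A CON to 4.94% (42 for 22) and 13.7%. With a pseudocount of 1 the FSK falls were 5.53% (61) and 5.76% (48 for 75), the members lower in Med14 S983A 8.46%, and the Ex-4 changes in WT and falls in Med14 S983A 0. Without the requirement of a value in each library, peaks without a call count as changed, and rises then outnumbered falls with FSK. FSK gave 22.9% higher (397 for 64) and 14.9% lower (258) in WT and 19.6% (339 for 27) and 14.9% (259) in Med14 S983A. Ex-4 then gave 4.44% (77) and 4.33% (75) in WT and 9.63% (167) and 3.75% (65) in Med14 S983A, and the genotypes 11.0% (190) higher and 29.0% (502 for 90) lower. Over the 673 members called in all 6 libraries, FSK in WT gave 3.86% (26) higher and 7.28% (49) lower, and Ex-4 falls were 0 in each genotype. Centred libraries gave FSK falls of 7.25% and 6.59% and 4.82% (41) higher in Med14 S983A CON. Quantile normalization gave 6.44%, 6.0% and 5.17% (44).

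A 25 kb window kept 5890 peaks, with 17.4% of calls gained with FSK in WT and 4.09% higher and 14.1% lower in Med14 S983A CON. A 100 kb window kept 377, with 22.3% gained with FSK and 3.18% lost with Ex-4 in WT, 0 lower with Ex-4 in Med14 S983A and 13.0% lower in Med14 S983A CON. The counts behind these shares grow or shrink with the number of peaks kept. For FSK in WT, 365 peaks fell with the 25 kb and 18 with the 100 kb window. Neighbours counted only among peaks called in 2 libraries, an alternative chosen after the data were seen like that of neighbours called in CON, gave 2863 peaks, 14.4% of them in every WT library and no mutant one (411 for 214).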
